A study of Bos grunniens and Bos grunniens x Bos taurus with 2 samples.

Results

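Pericytes are the mural cells that sit on capillaries and small venules, and 374 cells were picked by UMIs of their ATP-sensitive potassium channel genes KCNJ8 and ABCC9 and of the marker HIGD1B out of 18734 testis cells of a yak and a cattle-yak. A cell was taken when under 30% of its unique molecular identifiers (UMIs, each standing for 1 captured transcript) came from mitochondrial features, when it held at least 3 UMIs over KCNJ8, ABCC9 and HIGD1B together, at most 1 UMI over the endothelial genes CDH5, TIE1, KDR and EMCN, and none of PDGFRA, a gene of stromal cells. These 8 genes chose the cells, so their levels are given only as a description. The yak library gave 236 pericytes among 11114 cells under the mitochondrial limit, or 2.12% (exact binomial 95% interval 1.86 to 2.41%), and the cattle-yak library gave 138 among 7620, or 1.81% (1.52 to 2.14%).

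The study sequenced single cells of dissociated testis with the 10x Genomics droplet assay. A sexually mature yak (Bos grunniens) gave 1 library of 11991 cells and 60816600 UMIs, and a cattle-yak, the cross of Bos grunniens and Bos taurus, gave 1 library of 8930 cells and 43774841 UMIs. Both tissues had been frozen, thawed and digested with collagenase and hyaluronidase and then trypsin, and the reads of both were mapped to the yak genome. With 1 library per cross there is no replicate check anywhere in these values, so no test was made, every interval covers counting error only, and the cross, the animal, the capture and the mapping of cattle alleles to a yak genome cannot be told apart.

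Pericytes lie within the basement membrane that they share with the endothelium, and they take part in the control of capillary flow and in the stability of the vessel wall. Their recruitment depends on PDGF-B released by endothelial cells and read by the receptor PDGFRB. KCNJ8 encodes Kir6.1, the pore of the vascular ATP-sensitive potassium channel, and ABCC9 encodes SUR2, its regulatory sulphonylurea receptor; opening of this channel hyperpolarises the cell and relaxes it. HIGD1B is a small mitochondrial membrane protein much used as a pericyte marker, and RGS5 speeds the shut-off of G proteins below vasoconstrictor receptors. In the testis such cells surround the vessels of the interstitium, next to the muscle of arterioles, the peritubular muscle and the Leydig cells.

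The first limit drew a line through a falling distribution. Cells that met all the other limits numbered 77 at 2 UMIs of the 3 channel and marker genes, 33 at 3 UMIs and 25 at 4 UMIs in the yak, and 53, 34 and 20 in the cattle-yak. RGS5, which the rule did not use, stood at 325 CPM (the UMIs of a gene summed over the cells of a group, per 1000000 UMIs of those cells) in the yak cells with 2 UMIs, 1143 at 3, 1373 at 4 and 1786 at 5 or more. In the cattle-yak these levels were 344, 1015, 831 and 1499 CPM. PDGFRB went the same way, with 214, 587, 610 and 1009 CPM in the yak and 245, 515, 641 and 812 CPM in the cattle-yak. Both genes thus stood lower just outside the limit than anywhere inside it, and a limit in raw UMIs favours cells with more captured RNA.

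Among the cells past the first limit, the endothelial limit removed more than the limit on PDGFRA. Of 834 yak cells past the first limit, 562 (67.4%) held more than 1 endothelial UMI, and of 598 cattle-yak cells 444 (74.2%) did. These mixed cells had a median of 17517 UMIs in the yak and 13432 in the cattle-yak, against 5350 and 5104 in the pericytes, and held medians of 16 and 13 endothelial UMIs. They may be droplets with more than 1 cell and were not counted as pericytes. PECAM1, an endothelial junction gene outside the rule, was at 25.2, 95.8, 300.3 and 797 CPM in yak cells with 0, 1, 2 and 3 or more endothelial UMIs, and at 9.5, 11.4, 169.7 and 561 CPM in the cattle-yak. The plot of both UMI sums shows the pericytes as the lower right corner of a cloud that continues upward into these mixed cells. PDGFRA removed a further 36 and 16 cells.

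**Figure D1:**
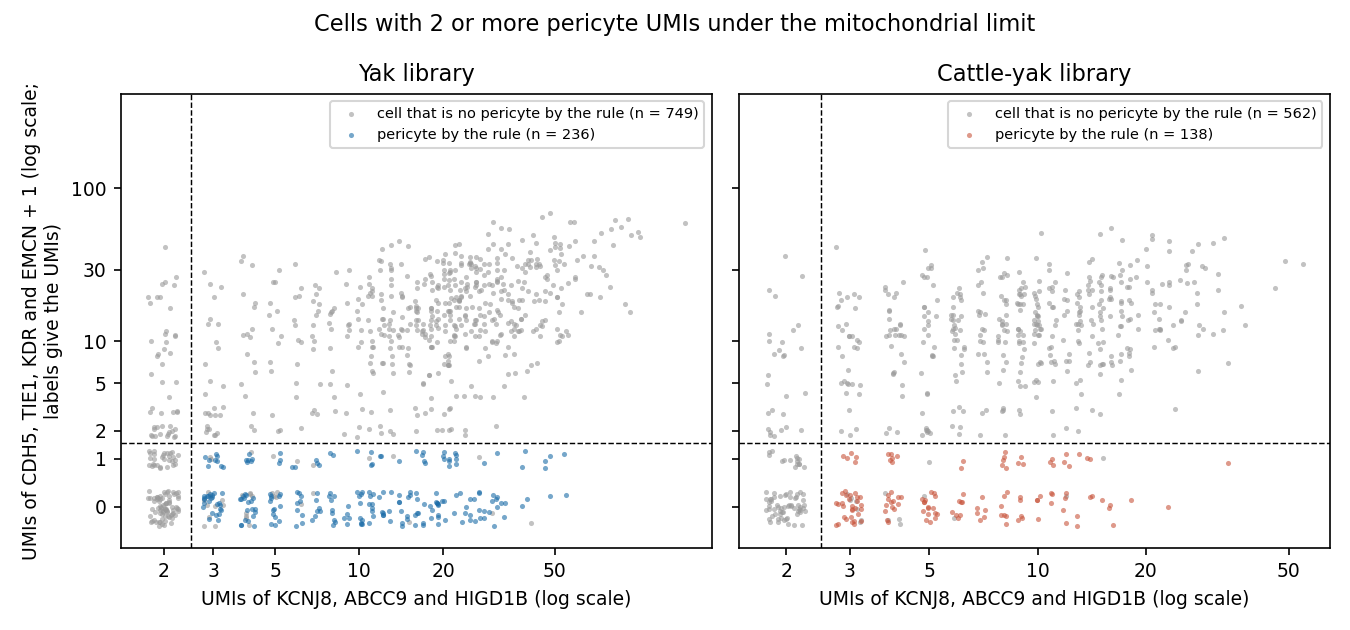
Each point is 1 cell with at least 2 UMIs over KCNJ8, ABCC9 and HIGD1B, drawn by those UMIs (horizontal, log scale) and by its UMIs of CDH5, TIE1, KDR and EMCN + 1 (vertical, log scale, labelled with the UMIs), with dashed lines at the limits of the rule. The 236 yak and 138 cattle-yak pericytes (coloured) lie right of the first limit and below the endothelial limit, and most other cells right of the first limit lie above the endothelial one.

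HIGD1B carried the selection. All 236 yak pericytes and 136 of 138 cattle-yak pericytes had a UMI of it, and its level was 1980 CPM in the yak and 1071 CPM in the cattle-yak. KCNJ8 was seen in 89 yak pericytes (37.7%) and 27 cattle-yak pericytes (19.6%), at 137 and 43.3 CPM. ABCC9 was seen in 90 (38.1%) and 41 (29.7%), at 135 and 73.0 CPM. Both channel subunits were found together in 52 yak and 12 cattle-yak pericytes, and HIGD1B without either in 109 (46.2%) and 82 (59.4%). At a median of 10 and 5 UMIs over the 3 genes per cell, a subunit with no UMI was not detected, and whether it was absent was not tested. KCNJ8 and ABCC9 are direct neighbours on 1 chromosome in the RefSeq annotation of the assembly Bosgru_T2T1.0, with 0 other genes starting between them.

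RGS5 and further pericyte genes that the rule left aside are described next. They were chosen with earlier results of these data known, so they are no independent support for the label. RGS5 stood at 1678 CPM (exact Poisson 95% interval 1610 to 1748) in yak pericytes and at 1268 CPM (1191 to 1348) in cattle-yak pericytes. Muscle cells, defined here as cells with at least 5 UMIs of the smooth muscle myosin gene MYH11, no PDGFRA and at most 1 UMI each of the pericyte and endothelial sums, held 369 and 336 CPM. PDGFRA cells, with at least 2 UMIs of that gene and called stromal here, held 16.4 and 20.1 CPM, and cells with at least 3 endothelial UMIs held 33.2 and 64.7 CPM. The order was the same in both libraries, with pericytes above muscle and muscle far above the rest. To set aside depth, each cell was thinned to 1000 UMIs: RGS5 was then found in 68.8% of 234 yak pericytes (62.4 to 74.7%) and 67.2% of 137 cattle-yak pericytes (58.6 to 74.9%), in 32.4% and 24.3% of muscle cells, and in 1.6% and 0.9% of lymphocytes, cells that should lack it. Without thinning it was found in 218 (92.4%) and 130 (94.2%) pericytes, whereas 5 yak and 2 cattle-yak pericytes had neither RGS5 nor PDGFRB.

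PDGFRB, the receptor that endothelial PDGF-B acts on, was at 924 CPM in yak pericytes and 712 CPM in cattle-yak pericytes. It was at 149 and 140 CPM in muscle, 227 and 217 CPM in stromal and 15.8 and 38.9 CPM in endothelial cells. The log2 ratio of pericytes to muscle, computed throughout on CPM + 1, was 2.62 (counting interval 2.49 to 2.77) in the yak and 2.34 (2.17 to 2.52) in the cattle-yak. GJA4, the connexin 37 gap junction protein, was at 1035 and 476 CPM, or 3.27 and 2.28 above muscle on the log2 scale, with endothelial cells at 361 and 575 CPM. ADAMTS4, a protease that cuts aggrecan and versican, was among the most abundant of the listed genes at 3053 and 3456 CPM, but its distance from muscle differed, with a log2 ratio of 1.65 in the yak and 0.51 in the cattle-yak, where muscle itself held 2421 CPM. NOTCH3, the mural Notch receptor, was at 63.6 and 45.8 CPM, with log2 ratios to muscle of 1.10 and 0.08. MCAM, an adhesion molecule of all mural cells, did not set pericytes apart from muscle, at 548 and 338 CPM against 573 and 491.

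**Figure D2:**
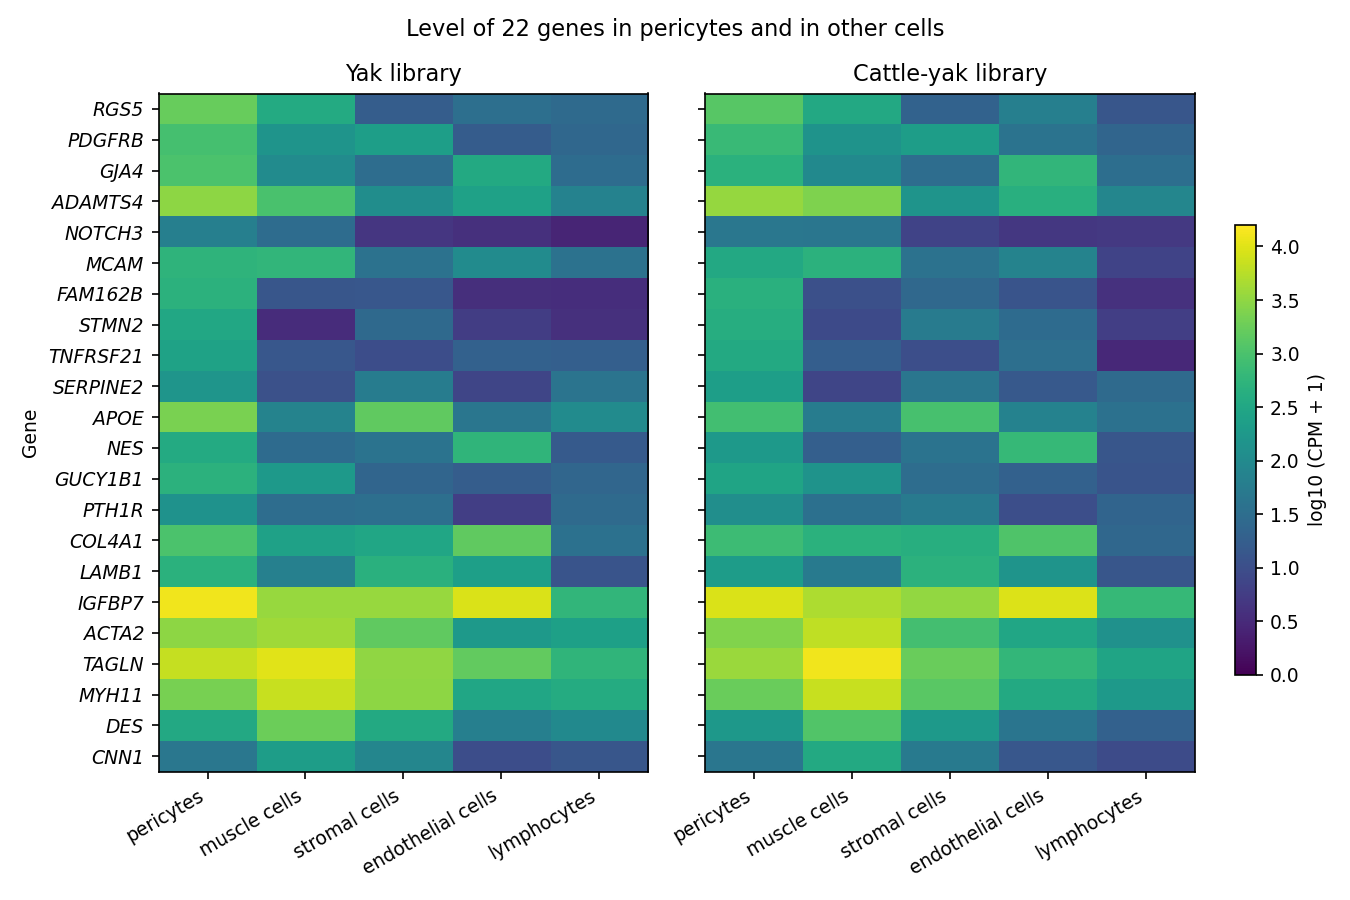
Colour gives log10 of CPM + 1 for 22 genes (rows) in the pericytes, muscle, stromal and endothelial cells and lymphocytes (columns) of each library, to be read along a row, since genes differ in length. RGS5 and PDGFRB were highest in the pericytes of both libraries, GJA4 was also high in endothelial cells and ADAMTS4 in muscle, and ACTA2, TAGLN, MYH11, DES and CNN1 were highest in muscle.

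A gene was compared when the mean CPM of both sides was at least 20, and was counted as past the fold at a log2 ratio of at least 1 or at most -1. Of all 5100 genes so compared in the yak, 7.47% were higher and 15.9% lower in pericytes than in muscle, and of 4425 in the cattle-yak 8% were higher and 4.95% lower. Of the pericyte genes outside the rule, 18 of 22 were annotated. In the pericytes only 11 of these 18 were at 20 CPM or more in each library, and 1 in the yak and 3 in the cattle-yak were at 0. Of 11 compared with muscle, 6 were higher and 0 lower in the yak (median log2 ratio 1.10, all genes -0.13). In the cattle-yak 4 of 10 were higher and 0 lower (median 0.43, all genes 0.20). PTH1R, the parathyroid hormone receptor, was among those higher in both, at 137 and 119 CPM against 30.2 and 34.98 CPM in muscle. The 811 genes lower in the yak became 237 when the 4.24% of yak muscle cells with 3 or more UMIs of germ cell markers were left out, an alternative chosen after seeing the data, whereas the cattle-yak count went from 219 to 222. The count of 354 cattle-yak genes higher than in muscle became 227 without pericytes that held 3 or more UMIs of lymphocyte, macrophage and germ cell markers, 227 within 2 standard deviations of depth and 691 at a mitochondrial limit of 20%.

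The cells also lay together when the genes of the rule were left out. Among the 15 nearest cells of each pericyte, in 30 principal components of 2000 variable genes without those 8, 61.9% were pericytes in the yak and 52.1% in the cattle-yak, where pericytes made up 2.12% and 1.81% of the cells. Muscle cells supplied 8.95% and 17.5% of the neighbours, mixed cells 11.6% and 11.3%, stromal cells 0.48% and 0.39%, and endothelial cells 0.93% and 0.39%. A majority of pericyte neighbours was found for 169 of 236 and 82 of 138. Of the muscle, stromal and endothelial classes, muscle was therefore the nearest, and it comes first in the comparisons.

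Among 4149 genes compared in both libraries, 134 were higher in pericytes than in muscle in each, which is 45.3% of the yak's 296 and 47.0% of the cattle-yak's 285. Another 110 were lower in each, or 27.6% of the yak's 399 and 55.3% of the cattle-yak's 199. In opposite directions, 22 of the 399 genes lower in the yak were higher in the cattle-yak, as were 285 of all 4149. Of the 296 higher in the yak, 1 was lower in the cattle-yak, as were 199 of all 4149. The 811 yak genes lower than in muscle became 237 without muscle cells with germ cell markers. How the counts over both libraries move with this was not tested. With the rule genes HIGD1B, ABCC9 and KCNJ8 set aside, STMN2 stood farthest from muscle among the named genes. It encodes a tubulin-binding protein best known from neurons. STMN2 was at 325 CPM in yak pericytes against 2.42 in muscle, so that the ratio was 6.57 (6.21 to 8.08). The cattle-yak pericytes held 420.5 CPM against 7.63, for a ratio of 5.61 (5.24 to 6.38). In cells thinned to 1000 UMIs it was found in 23.1% and 27.0% of pericytes, 0.7% and 1.3% of muscle cells and 0.3% and 1.2% of lymphocytes. FAM162B, a small membrane protein of little-known function, was at 490 and 464 CPM against 12.3 and 9.47 in muscle, and thinned shares were 40.6% and 39.4% against 1.6% and 1.3%. Both genes were thus found in a minority of thinned pericytes, and in far fewer of the muscle cells, in either library.

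Several of the other named genes far above muscle in both libraries encode secreted proteins or receptors. APOE, the lipid carrier, was at 2293 CPM in the yak and 861 CPM in the cattle-yak, with log2 ratios to muscle of 4.90 and 3.87, and stromal cells also held 1493 and 954 CPM. SERPINE2, an inhibitor of thrombin and plasminogen activators, was at 155 and 224 CPM, with ratios of 3.84 and 4.89. C7, a terminal complement component, was at 177 and 141 CPM against 8.15 and 10.5 in muscle, and stromal cells were higher again at 366 and 266 CPM. POSTN, a matrix protein that binds integrins, was low at 52.6 and 61.8 CPM but lower elsewhere, with 1.32 and 5.00 in muscle and 5.56 and 15.0 in stromal cells. TNFRSF21, a death receptor of the tumour necrosis factor family, was at 263 and 350 CPM, with ratios of 4.24 and 4.30. ADGRF5, an adhesion G protein-coupled receptor, was at 189 and 96.5 CPM against 15.2 and 6.05 in muscle, although endothelial cells held 425 and 550 CPM.

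At the other end, the genes farthest below muscle in both libraries included CPE, a carboxypeptidase of peptide hormone processing, at 14.6 and 18.5 CPM against 341 and 399. NDRG4, a member of the N-myc downstream-regulated family, was at 19.7 and 50.7 CPM against 461 and 706. CKB, the brain-type creatine kinase, was at 59.2 and 44.5 CPM against 468 and 385, and CDH13, a cadherin without a cytoplasmic tail, at 25.6 and 21.0 CPM against 194 and 219. PRUNE2 had 2 UMIs in all yak pericytes and 1 in all cattle-yak pericytes, with ratios of -4.94 (-8.72 to -3.80) and -4.58 (-10.72 to -2.92). DPYSL3 and SLC6A17 followed, with ratios of -3.50 and -3.26 in the yak and -3.17 and -2.93 in the cattle-yak. The pericytes were low in these genes in both libraries, and so were the stromal cells for NDRG4, CKB and SLC6A17.

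**Figure D3:**
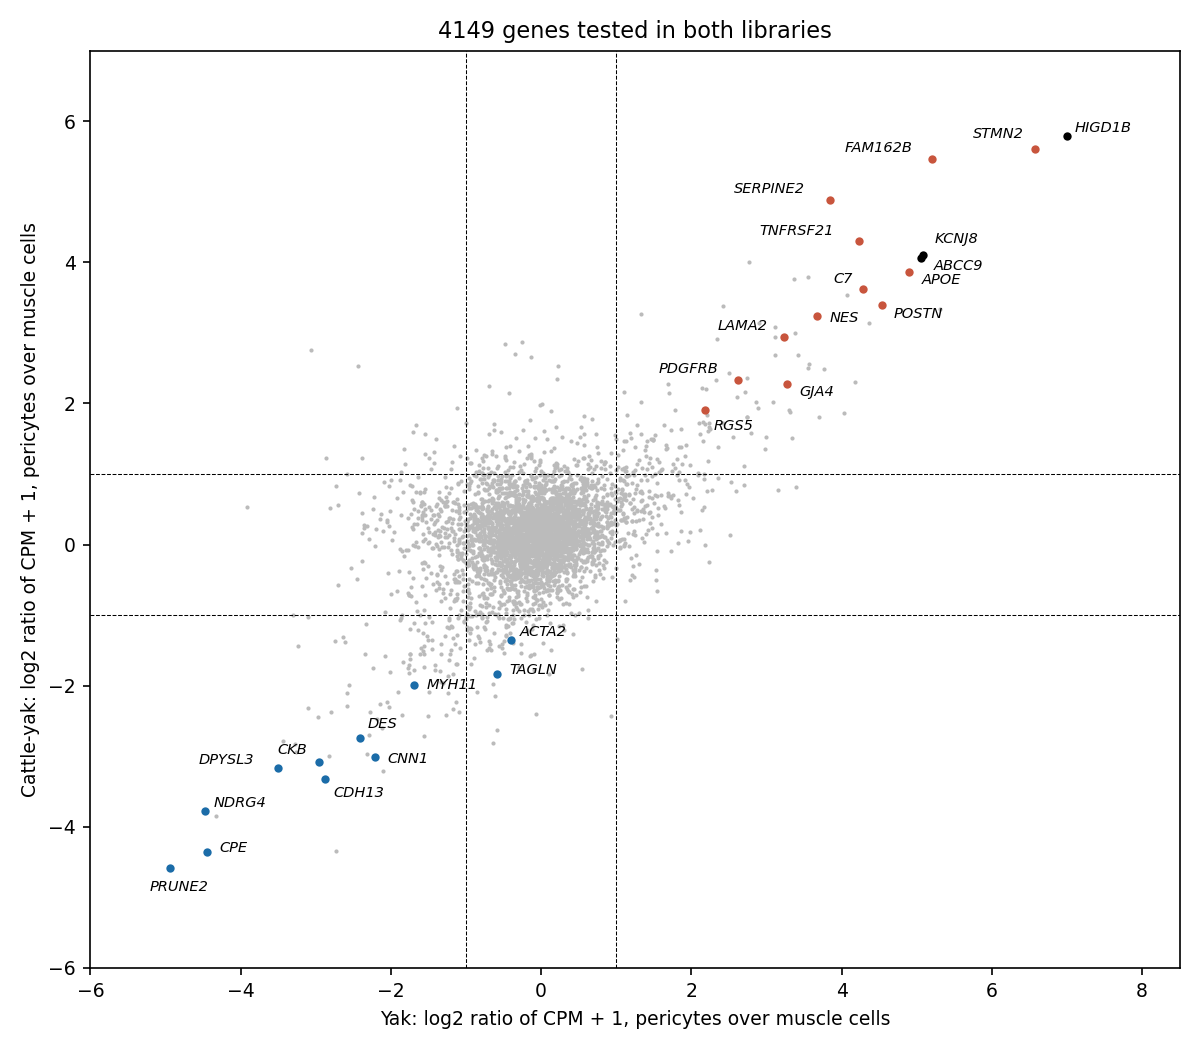
Each point is 1 of 4149 genes, placed by its log2 ratio of CPM + 1 between pericytes and muscle cells in the yak (horizontal) and in the cattle-yak (vertical), with dashed lines at 1 and -1, rule genes in black and named genes in red (higher) and blue (lower). STMN2, FAM162B and APOE lie at the upper right and CPE, NDRG4 and PRUNE2 at the lower left, while most genes lie near 0 on both axes.

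Contractile genes were lower in pericytes than in muscle, but far from absent. Of 21 compared, 0 were higher and 11 lower in the yak (median log2 ratio -1.12), and 0 higher and 21 lower in the cattle-yak (median -1.70). MYH11 chose the muscle cells, so part of this is fixed by the choice. ACTA2, smooth muscle actin, was at 3059 CPM in yak pericytes against 4041 in muscle, so that the ratio was -0.40 (-0.45 to -0.35). The cattle-yak pericytes held 2498 CPM of it against 6382, for a ratio of -1.35 (-1.42 to -1.29). TAGLN, an actin-binding protein of smooth muscle, was at 6788 and 3632 CPM, with ratios of -0.59 and -1.84. DES, the muscle intermediate filament desmin, was at 336 and 169 CPM against 1798 and 1140, and CNN1, calponin, at 46.1 and 43.3 CPM against 217 and 356. CNN1 and DES, late markers of contractile muscle, stood farther below muscle than ACTA2 and TAGLN in both libraries.

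As a share of a cell's UMIs, the contractile list had a median of 2.11% in yak pericytes and 1.28% in cattle-yak pericytes. The medians were 4.65% and 4.97% in muscle, 1.13% and 0.363% in stromal and 0.384% and 0.256% in endothelial cells. Pericytes ranged from 0.215 to 6.55% in the yak and from 0.0558 to 6.17% in the cattle-yak, so they overlapped both muscle and stromal cells. The plot of these shares per cell shows the wide spread of the cattle-yak pericytes.

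**Figure D4:**
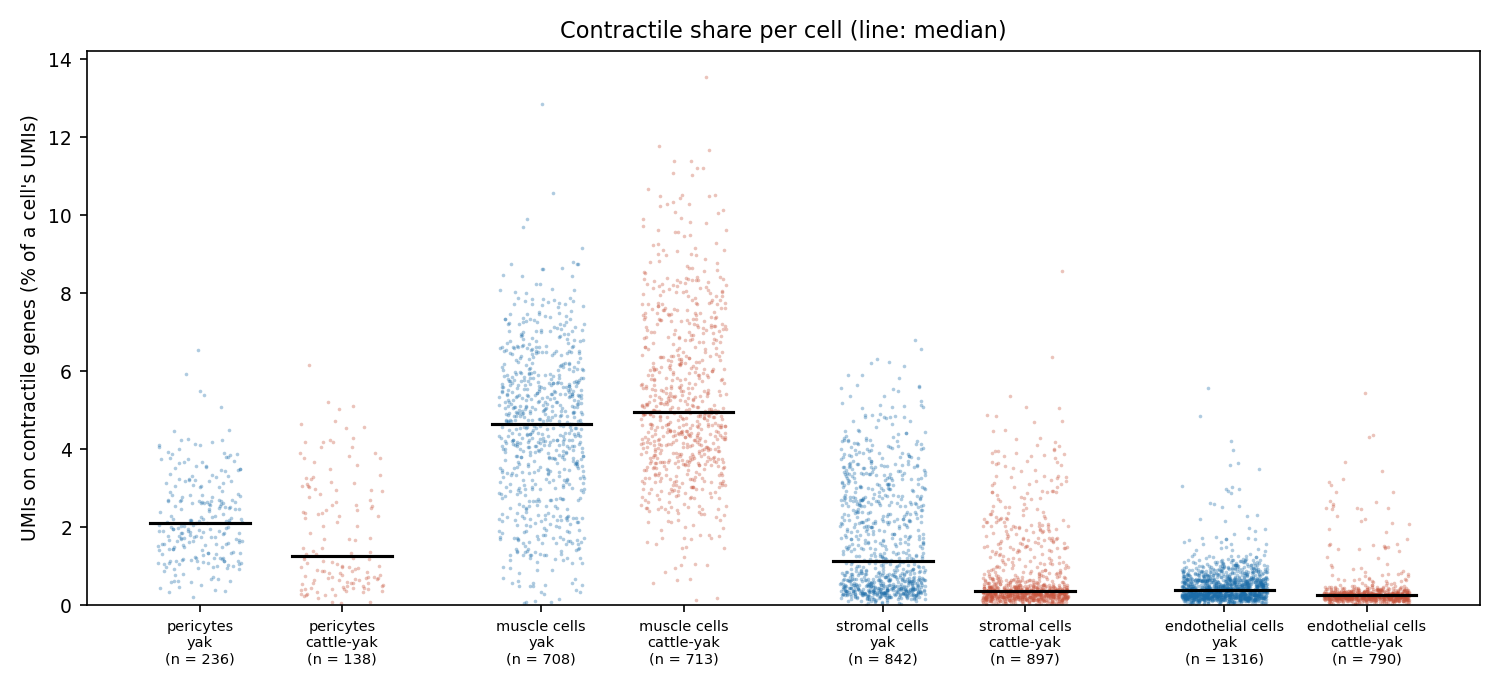
Each point is 1 cell, with the share of its UMIs that came from the contractile list in percent (vertical), for pericytes, muscle, stromal and endothelial cells of the yak (blue) and the cattle-yak (red), and black lines mark the medians. The medians of 2.11% and 1.28% in pericytes lay below the 4.65% and 4.97% of muscle, and the cells of both classes overlapped.

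Channels and receptors divided. Of 16 channel genes compared, 3 were higher and 4 lower in each library, with medians of 0.07 and -0.01. RYR2, the calcium release channel, was at 125 and 64.3 CPM against 177 and 167 in muscle, and ATP2B4, a calcium pump of the plasma membrane, at 48.3 and 59.4 CPM against 140 and 147. TRPC6, a cation channel of vascular muscle, was at 152 CPM in the pericytes of each library, against 103 and 144 in muscle and 1.93 and 6.90 in stromal cells. Of the vasoactive receptors, 4 of 8 compared were higher in the yak and 3 of 7 in the cattle-yak, and 0 lower in either. EDNRB, an endothelin receptor, was at 41.7 and 21.0 CPM against 3.96 and 2.63 in muscle, while EDNRA, the other one, was at 40.2 and 65.5 CPM against 37.9 and 61.3. ADORA2A, an adenosine receptor that raises cAMP, was at 38.0 and 108 CPM, with ratios of 1.33 and 3.27. AGTR1, the angiotensin II receptor, was at 21.2 and 19.8 CPM, whereas muscle held 3 UMIs in the yak and 1 in the cattle-yak. EDNRB and AGTR1 were thus low in muscle in both libraries. The mean of both sides was under the limit of 20 CPM for AGTR1 in both libraries and for EDNRB in the cattle-yak. There these genes were not among those compared. Lymphocytes, given as a background, were at 0.648 CPM of EDNRB and 0.216 CPM of AGTR1 in the yak library, and at 0 and 1.01 CPM in the cattle-yak library. Summed over the list, pericytes held 744 and 676 CPM, muscle 368 and 413, stromal cells 1763 and 2302, and endothelial cells 2182 and 2391. The sum was thus higher than in muscle and lower than in both other classes, but counts of genes did not all follow it. Against stromal cells 5 of 8 were higher and 2 lower in the yak (median 2.28). In the cattle-yak 3 of 6 were higher and 2 lower (median 0.91). Against endothelial cells 5 of 10 were higher and 4 lower in the yak (median 0.82). In the cattle-yak 3 of 9 were higher and 5 lower (median -1.94).

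Nitric oxide acts on mural cells through the soluble guanylate cyclase. Its beta subunit gene GUCY1B1 was at 506 and 281 CPM against 181 and 143 in muscle, and its alpha subunit gene GUCY1A1 at 83.4 and 89.0 CPM against 32.6 and 29.5. PRKG1, the kinase activated by its product cGMP, was not higher, at 113 and 115 CPM against 129.9 and 195. PDE1C, a calcium-dependent phosphodiesterase, was at 65.8 and 17.3 CPM against 3.30 and 1.05 in muscle, and in the cattle-yak was under the limit for comparison. Over the whole list of cGMP, cAMP and RGS genes, 5 of 15 were higher and 1 lower in the yak, and 2 of 14 higher and 1 lower in the cattle-yak. RGS4, a relative of RGS5, did not follow it, with a ratio to muscle of 1.01 in the yak and -1.35 in the cattle-yak.

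The basement membrane genes were higher in part. In the yak 8 of 17 were higher and 1 lower (median 0.21), and in the cattle-yak 3 of 15 were higher and 3 lower (median -0.08). LAMB1 and LAMA2, laminin chains, were at 481 and 79.0 CPM in the yak and 208 and 122 CPM in the cattle-yak, with ratios to muscle of 2.86 and 3.24 and of 2.03 and 2.95. The collagen IV chain COL4A1 was at 1032 and 765 CPM, and its ratio was 2.03 in the yak but 0.66 in the cattle-yak. SPARC, a collagen-binding glycoprotein, was at 3290 and 3873 CPM, with ratios of 1.78 and 1.08. LAMB1 and LAMA2 thus stood apart from muscle in both libraries and COL4A1 in the yak alone, a difference between libraries that was not tested.

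Fibrillar and interstitial matrix genes had ratios to muscle that differed between the libraries. In the yak 13 of 18 were higher than in muscle and 0 lower (median 1.48), whereas in the cattle-yak 2 of 17 were higher and 3 lower (median 0.13). COL1A2, a collagen I chain, was at 474 CPM against 104 in muscle in the yak, and at 340.1 CPM in both pericytes and muscle in the cattle-yak. COL3A1 was at 203 CPM against 69.3, and at 121 CPM against 156. DCN, the proteoglycan decorin, kept a ratio of 2.19 and 2.21. Between the pericytes themselves, 1 of 18 genes of this list was higher and 1 lower in the cattle-yak (median -0.51). Of the basement membrane list 1 of 15 was higher and 1 lower (median -0.43). Over all 4719 genes compared 4.17% were higher and 5.79% lower (median -0.02), and no difference between lists was tested. In the cattle-yak the muscle cells held more mRNA of both collagens than in the yak, and the pericytes less. MGP, an inhibitor of calcification, was at 3382 and 2128 CPM, with ratios of 0.99 and 0.74.

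The lists of growth factors and of IGF binding proteins and proteases had more genes higher than in muscle in the yak than in the cattle-yak. Over all genes compared, 7.47% were higher and 15.9% lower than in muscle in the yak, and 8% and 4.95% in the cattle-yak. The share of higher genes was thus not larger in the yak over all genes. No difference between the libraries was tested. IGFBP7, a secreted binding protein of the vessel wall, was at 12763 CPM in the yak and 9212 CPM in the cattle-yak, with ratios to muscle of 1.84 and 0.91. In its list 8 of 18 genes were higher and 2 lower in the yak, and 4 of 17 higher and 2 lower in the cattle-yak. PTN, the growth factor pleiotrophin, was at 475 and 522 CPM against 221 and 115. CXCL12, a chemokine that is abundant in endothelium, was at 325 CPM in yak pericytes against 74.4 in muscle and at 140 CPM in the cattle-yak against 122. Of the chemokine, cytokine and growth factor list, 4 of 11 were higher and 1 lower in the yak, and 1 of 12 higher and 3 lower in the cattle-yak.

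Of the TGF-beta, BMP and WNT genes, 5 of 17 were higher and 4 lower in the yak, and 0 of 16 higher and 7 lower in the cattle-yak. INHBA, the activin subunit, was at 21.2 and 33.4 CPM against 173 and 187 in muscle. ID1, a target of BMP signals, was at 90.7 and 109 CPM against 136 and 680. Of the PDGF, Notch and angiopoietin genes, PDGFRB and NOTCH3 were the 2 of 9 higher in the yak and PDGFRB the 1 of 9 in the cattle-yak, with 0 lower. ID4, of the same family, was at 102 and 48.2 CPM against 293 and 264, so both ID genes stood below muscle in each library, past the fold for ID1 in the cattle-yak alone.

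Of the transcription factors, 4 of 13 were higher than in muscle in the yak and 2 of 12 in the cattle-yak, with 0 lower. Their median log2 ratios were 0.58 and 0.30, against -0.13 and 0.20 over all genes. PRRX1, a mesenchymal homeobox factor, was at 124 and 42.0 CPM against 8.59 and 11.3 in muscle, close to the stromal 122 and 55.2 CPM. NR2F1, a nuclear receptor, was at 68.0 and 39.6 CPM against 16.5 and 17.6. TBX3 and NR2F2 were at 236 and 309 CPM in the yak and 192 and 256 CPM in the cattle-yak, less than the 2-fold limit above muscle. NES, the intermediate filament nestin that is also listed for the Leydig lineage, was at 369 and 178 CPM against 28.0 and 17.9, but endothelial cells held 565 and 647 CPM. Among the Leydig and steroid genes it was the 1 of 3 higher in each library.

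Of the integrin and adhesion genes 3 of 11 were higher and 2 lower in the yak, and 2 of 12 higher and 4 lower in the cattle-yak; ITGA1, a collagen receptor chain, was at 465 and 172 CPM against 119 and 165. Of the transporters, SLC12A2, the sodium-potassium-chloride carrier, was higher in both, at 155 and 105 CPM against 30.2 and 20.0, within lists of 2 higher and 2 lower of 4 and 1 higher and 1 lower of 4. Of the respiratory chain and hypoxia genes, 0 of 7 passed in the yak, and 0 of 6 were higher and 1 lower in the cattle-yak. Stress and immediate early genes gave 1 higher and 1 lower of 16 in the yak and 0 higher and 2 lower of 16 in the cattle-yak. Antigen presentation and interferon genes gave 4 of 8 and 1 of 7 higher, and 0 lower. Cell cycle genes gave 0 higher and 1 lower of 6 in the yak and 3 higher and 1 lower of 7 in the cattle-yak. CENPF, a kinetochore protein among them, had 92 UMIs in 12 cattle-yak pericytes, of which 31 lay in 1 cell.

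Against stromal cells, 6.95% of 5107 genes in the yak were higher and 11.8% lower in pericytes, and 8.04% and 8.88% of 4786 in the cattle-yak. The pericyte list had 8 higher and 1 lower of 11 in the yak, and 7 higher and 1 lower of 9 in the cattle-yak. The lower one was EDNRA, which was at 342 and 297 CPM in stromal cells. Fibrillar matrix went the other way, with 4 higher and 9 lower of 19 and 3 higher and 13 lower of 18. Of the contractile list, 3 of 20 were higher and 2 lower in the yak and 3 of 19 higher and 0 lower in the cattle-yak, although its summed level was 23176 CPM in pericytes against 16675 in stromal cells and 16903 against 9776. Pericytes were thus set off from PDGFRA cells by their mural genes and by less interstitial matrix mRNA, PDGFRA itself having been used for both groups.

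Against endothelial cells, 9.1% of 5120 genes in the yak and 7.92% of 4975 in the cattle-yak were higher in pericytes. Another 722 and 724 genes were lower. The pericyte list had 9 of 10 and 7 of 9 higher, and the contractile list 14 of 19 and 13 of 17. Against all other cells under the mitochondrial limit, 6.07% of 5569 genes in the yak and 3.72% of 4972 in the cattle-yak were higher, while 1249 and 368 were lower. The named genes with a high ratio there in both libraries were FAM162B (3.15 and 2.89), POSTN (3.17 and 2.98), CAMK2A (2.97 and 2.72), RGS5 (2.94 and 2.65), TRPC6 (2.84 and 2.47), GPR155 (2.57 and 2.44) and GUCY1A1 (2.46 and 2.55). CAMK2A encodes a calcium-calmodulin kinase and GPR155 a lysosomal cholesterol sensor. Mixed cells are among these other cells and hold pericyte RNA, so the ratios are lower than against cells without it.

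The pericytes differed among themselves in their muscle genes. MYH11 was not used to choose them, and its UMIs per cell had a median of 7 in the yak and 4 in the cattle-yak, against 38 and 31 in muscle. At least 5 UMIs were held by 147 yak pericytes (62.3%) and 64 cattle-yak pericytes (46.4%), and at most 1 by 35 (14.8%) and 53 (38.4%). The former had more UMIs in all, with medians of 6105 against 2963 in the yak and 5566 against 4401 in the cattle-yak. The pericytes with at least 5 UMIs of MYH11 met every limit of the muscle class except that on the pericyte sum. The UMIs of KCNJ8, ABCC9 and HIGD1B alone thus decided that these cells were not counted as muscle. Whether they were muscle cells was not tested. In the cattle-yak ACTA2 was at 4669 CPM in the MYH11-high and 445 CPM in the MYH11-low pericytes, and STMN2 at 83.6 against 816 CPM. In the yak the same genes stood at 3477 against 1401 CPM and at 254 against 590.

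RGS5 followed this split less than ACTA2, at 1831 against 1244 CPM in the yak and 1460 against 1035 in the cattle-yak. PDGFRB was somewhat higher in the MYH11-low pericytes, at 894 against 1281 CPM and 488 against 964 CPM, as were GJA4, TNFRSF21 and SERPINE2. TNFRSF21 was at 249.7 against 433 CPM in the yak and 162 against 540 in the cattle-yak. FN1, fibronectin, was at 251 against 470 CPM and at 39.2 against 236 CPM. ROBO4, an endothelial guidance receptor, was also higher in the MYH11-low cells, at 29.7 against 157 CPM and 10.4 against 54.0 CPM, and the part of endothelial RNA in the split was not tested. Across cattle-yak pericytes, the contractile share and the STMN2 level had a Spearman's rho of -0.586 over 138 cells of 1 library, and in the yak of -0.206 over 236 cells, as a description of cells that share a library.

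**Figure D5:**
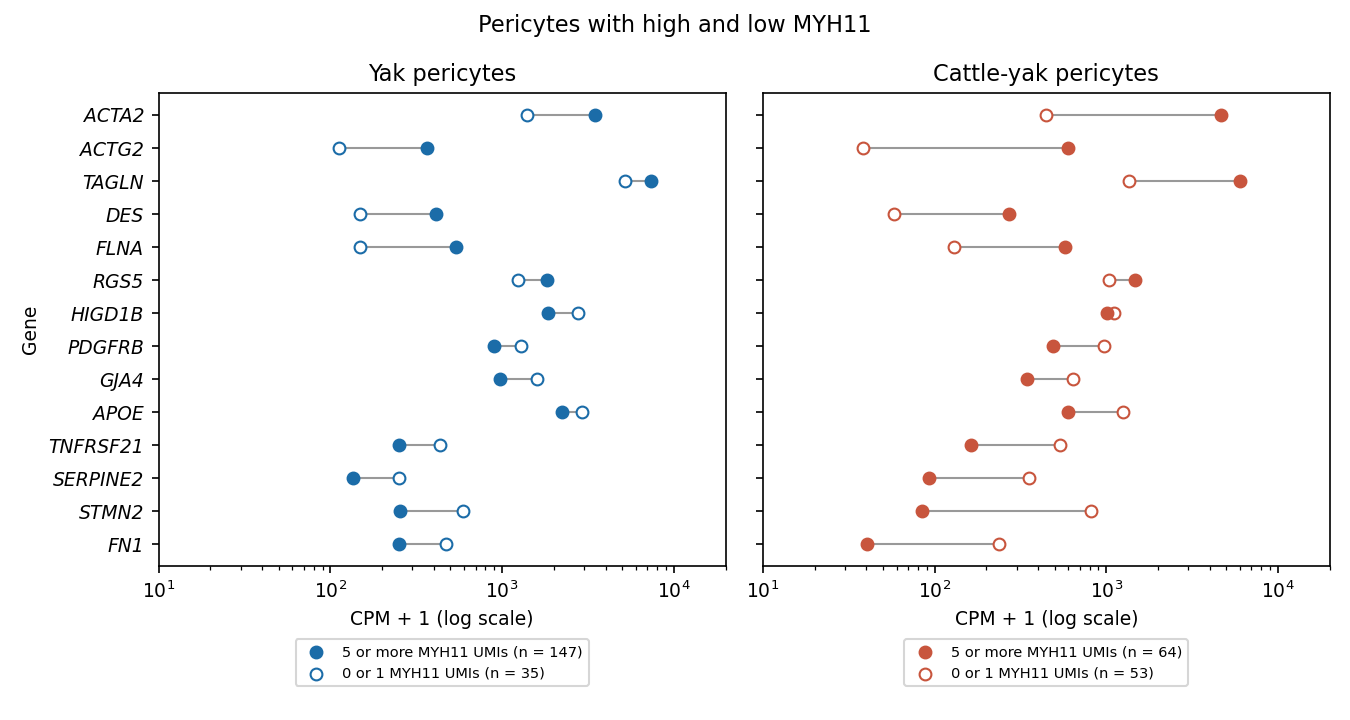
Circles give CPM + 1 (horizontal, log scale) of 14 genes in pericytes with at least 5 UMIs of MYH11 (filled) and with 0 or 1 (open), joined by a line, for the yak and the cattle-yak. ACTA2 was higher and STMN2 lower in the MYH11-high pericytes of both libraries, by more in the cattle-yak, while RGS5 and HIGD1B lay closer together.

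The pericytes were also divided by the channel subunits, with both sides chosen on rule genes. The 127 yak pericytes with a UMI of KCNJ8 or ABCC9 held 1287 CPM of MYH11 and the 109 with HIGD1B alone 3233 CPM. In the cattle-yak the 56 and 82 such cells held 605 and 2748 CPM. By cells the libraries differed, since at most 1 UMI of MYH11 was held by 18 of 127 and 17 of 109 yak pericytes and at least 5 by 77 and 70 of them, so that the sides were close, whereas at most 1 was held by 33 of 56 and 20 of 82 cattle-yak pericytes and at least 5 by 10 and 54. STMN2 was at 498 against 107 CPM in the yak and 619 against 249 in the cattle-yak, LAMA2 at 132 against 13.2 and 160.0 against 89.9, and SLC12A2 at 218 against 75.8 and 155 against 62.3. TRPC6 ran with MYH11, at 109 against 206 CPM and 40.0 against 249. ACTA2 did so as well, at 2629 against 3597 CPM in the yak and 453 against 4266 CPM in the cattle-yak. The median UMIs per cell on each side were 5504 and 5210 in the yak and 5105 and 5104 in the cattle-yak. RGS5 was at 1867 against 1441 CPM and 1192 against 1333 CPM, so it did not divide them in the same direction in both libraries.

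STMN2 was seen in 86 of 236 yak pericytes and 53 of 138 cattle-yak pericytes. FAM162B was seen in 78 of the 86 and 101 of the other 150 in the yak, and in 48 of the 53 and 49 of the other 85 in the cattle-yak. TNFRSF21 was seen in 67 of 86 and 78 of 150, and in 47 of 53 and 47 of 85. TAC1, the precursor of substance P, was seen in 14 of the 53 and 6 of the other 85 cattle-yak pericytes, and in 1 yak pericyte, which had no STMN2. STMN2, FAM162B and TNFRSF21 were thus often found in the same cells, and the part of cell depth in this was not tested.

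Markers of other cell types were also found in the pericytes, and whether they came from other cells was not tested. The endothelial markers summed to 174 CPM in yak pericytes and 129 CPM in cattle-yak pericytes, against 3597 and 3370 CPM in endothelial cells, with ROBO4 the most abundant at 48.3 and 32.2 CPM; 1 of 12 genes in the yak and 2 of 12 in the cattle-yak were at 0, TIE1 among them in both. The rule itself kept 4 of these genes low. Lymphocyte markers summed to 114 and 39.6 CPM against 8172 and 6134 CPM in lymphocytes, with CCL5 the most abundant at 51.2 and 18.5 CPM and 2 and 3 of 9 genes at 0. Macrophage markers summed to 39.5 and 16.1 CPM, led by AIF1 and C1QA, with 5 and 3 of 7 genes at 0. Stromal markers summed to 749 and 874 CPM against 5092 and 5718 CPM in stromal cells, led by COL1A2 in the yak and DCN in the cattle-yak, with 3 and 2 of 8 genes at 0. Sertoli and epithelial markers summed to 68.7 and 113 CPM, led by CRYAB, with 1 of 7 at 0 in each, and Schwann cell markers to 12.4 and 30.9 CPM, led by S100B and NGFR, with 6 and 5 of 8 at 0. The endothelial and lymphocyte sums were thus far below those of their own classes, and the stromal ones less far. Against muscle, 2 of 3 endothelial markers compared were higher in the yak and 1 of 1 in the cattle-yak, stromal markers in 2 of 3 and 1 of 3, and germ cell markers in 1 of 8, with 3 lower, and 3 of 3. Of the Sertoli and epithelial markers 3 of 3 and 2 of 3 were lower, of the lymphocyte markers 2 of 2 and 0 of 1, of the Schwann cell markers 1 of 1 and 0 of 1, and of the macrophage markers 0 of 1 in the yak. The sums in muscle were 82.6 and 41.8 CPM for endothelial, 423 and 80.5 CPM for germ cell and 231 and 548 CPM for stromal markers. They were 357 and 49.5 CPM for lymphocyte and 430 and 407 CPM for Sertoli and epithelial markers, above the pericytes in both libraries. At least 3 UMIs of the lymphocyte markers were held by 12.1% and 2.38% of muscle cells, and of the Sertoli and epithelial markers by 33.2% and 27.9%. The part of RNA of these other cell types in the comparison with muscle was not tested.

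UMIs of germ cell markers were concentrated in few cells. The germ cell markers summed to 259 CPM in the yak, led by TEX29 with 0 of 9 genes at 0, and to 460 CPM in the cattle-yak, led by UCHL1 with 2 of 9 at 0. However, 5 yak pericytes held 312 of the 354 UMIs and 5 cattle-yak pericytes 352 of 372. The 6 yak and 4 cattle-yak pericytes with 3 or more such UMIs had medians of 11563 and 31736 UMIs, and RGS5 at 485 and 67.2 CPM, well below the other pericytes. Lymphocyte markers reached 3 UMIs in 19 yak and 2 cattle-yak pericytes, and endothelial markers in 21 and 9. RGS5 was at 752 and 2068 CPM in the former and at 1338 and 276 CPM in the latter. Without the pericytes that held 3 or more UMIs over the lymphocyte, macrophage and germ cell markers together, 213 and 130 were left and RGS5 was at 1818 and 1449 CPM. RGS5 was thus higher in both libraries once these cells were left out.

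Mitochondrial features took a median of 20.4% of the UMIs of a yak pericyte and 24.1% of a cattle-yak pericyte. The medians were 17.8% and 18.6% in muscle and 11.9% and 15.3% in endothelial cells. Pericytes thus lay closest to the 30% limit of the classes measured, and a limit of 20% left 107 and 26 of them. With mitochondrial features left out of the total, 465 yak and 535 cattle-yak genes were higher than in muscle, in place of 381 and 354, and 885 and 219 lower, in place of 811 and 219.

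Between the libraries, the pericytes of the cattle-yak were higher than those of the yak in 4.17% of 4719 genes and lower in 5.79%, with a median log2 ratio of -0.02. These counts of 197 and 273 became 316 and 311 with mitochondrial features left out of the total, and 89 and 209 without pericytes that held 3 or more UMIs of lymphocyte, macrophage and germ cell markers. A mitochondrial limit of 20% gave 434 higher and 613 lower, and a first limit of 2 UMIs gave 744 lower. Of the pericyte genes outside the rule, 0 of 11 were higher and 2 lower (median -0.40), and of the contractile genes 0 of 19 higher and 3 lower (median -0.29). RGS5 was 0.40 lower on the log2 scale in the cattle-yak (ratio -0.40, counting interval -0.51 to -0.30), and PDGFRB had a ratio of -0.38. The libraries lay closer in RGS5 at a mitochondrial limit of 20%, with 1211 CPM in the yak and 1044 in the cattle-yak. They also lay closer within 2 standard deviations of depth, with 1748 and 1475 CPM. GJA4 had a ratio of -1.12, while it was -0.13 in muscle and 0.67 in endothelial cells. HIGD1B, KCNJ8 and ABCC9 had ratios of -0.89, -1.64 and -0.88, and in muscle of 0.32, -0.66 and 0.11. Since these 3 genes also chose the cells, their levels carry the limit within them.

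Several secreted and signalling genes stood lower in the cattle-yak pericytes. APOE had a ratio of -1.41, against -0.64 in stromal cells. SERPING1, the C1 inhibitor, was at 1001 CPM in the yak and 287 CPM in the cattle-yak, a ratio of -1.80, with -0.15 in muscle and -0.48 in stromal cells. CD74, the invariant chain of class II antigen presentation, had a ratio of -1.45, but it was also lower in muscle (-0.94), stromal cells (-1.01) and lymphocytes (-1.23). PPP1R14A, an inhibitor of myosin phosphatase, had a ratio of -1.43, ITGA1 of -1.43, LAMB1 of -1.21, and PDE1C of -1.87. RGS4 was at 109 CPM in the yak, spread over 48 pericytes, and at 19.8 CPM in the cattle-yak over 13, while muscle held 53.7 and 51.8 CPM. For SERPING1, ITGA1, LAMB1 and RGS4 the distance in muscle was within 0.5 on the log2 scale, and whether the classes differ in it was not tested.

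Other named genes were higher in the cattle-yak pericytes. TAC1 had 41 UMIs in 20 cattle-yak pericytes, or 50.7 CPM, and 1 UMI in the yak, a ratio of 4.90 (3.56 to 11.45), whereas muscle, stromal and endothelial cells of both libraries held under 5 CPM. ADORA2A had a ratio of 1.48, with 87 UMIs in 51 cattle-yak and 52 UMIs in 42 yak pericytes, against -0.46 in muscle and 0.86 in endothelial cells. DCN had a ratio of 1.04 in pericytes and 1.02 in muscle. UCHL1, BEND4 and SLPI had ratios of 2.51, 4.21 and 3.36, but their UMIs came from 17, 6 and 5 cattle-yak pericytes, and 97 of the 269 UMIs of UCHL1 from 1 cell. At a mitochondrial limit of 20% the ratio of UCHL1 was -0.10. The cell with the most TAC1 held 5 of its 41 UMIs and that with the most ADORA2A 7 of 87, so neither rested on 1 cell.

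Single cells also made some of the large distances toward the yak. Of 126 UMIs of HMGB4 in yak pericytes 121 lay in 1 cell, and of 100 UMIs of TEX35 98 did, both genes of the testis, and the cattle-yak pericytes held none, which allows up to 3.71 CPM. CCL19, a chemokine that guides lymphocytes, had 162 UMIs in 8 yak pericytes, with 62 in 1 of them, or 118 CPM, and 0 in the cattle-yak. With the cell that held the most UMIs of each gene left out in each library, an alternative chosen after seeing the data, 117 genes were higher and 215 lower among 4274. The count of genes higher in the cattle-yak thus went from 197 to 117, and that of lower genes from 273 to 215.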

How the data were processed

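Testis cells of 1 yak and 1 cattle-yak were measured by droplet single-cell RNA sequencing, with 1 library each. The deposited matrices hold raw UMI counts per gene and cell, which the authors made with Cell Ranger (5.0.0 per the file headers, 2.1.1 in the submitters' processing notes) on BosGru3.0; 15722 of 26961 features carry a gene symbol. Matrices of cells called by Cell Ranger were used, with 500 UMIs as the lowest total. The libraries share 24 barcodes, and 1 yak pericyte and 0 cattle-yak pericytes carry one of them.

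The members and gene lists were chosen with earlier results of these data known, so no list is independent support. Raw counts were summed over the cells of a class in each library and scaled to CPM, with all features in the total. Ratios are log2 of CPM + 1 where the mean CPM of both sides is at least 20, and a gene is past the fold at 1 or -1. Exact Poisson, binomial and conditional intervals (95%) cover counting error only, and 3 counts give the upper limit for a count of 0, which is 2.19 CPM in the yak and 3.71 CPM in the cattle-yak pericytes (1367579 and 808628 UMIs). Named genes are those of the rule, members of the lists with at least 20 CPM, the 12 highest and 8 lowest against muscle in both libraries, the 10 highest against all other cells, and the 8 at either end between libraries; genes without a symbol are only counted, and 1 gene that this rule names is not reported here. The muscle, stromal, endothelial and lymphocyte classes (708, 842, 1316 and 1511 yak cells and 713, 897, 790 and 339 cattle-yak cells) follow limits on single genes and hold no pericyte, though a cell may meet the limits of more than 1 of them. Lymphocytes were cells with at least 3 UMIs over 6 lymphocyte genes.

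Doublets were scored with Scrublet through scanpy 1.11.5. It called 0 of 11991 yak cells, so it did not work there, and 251 of 8930 (2.81%) cattle-yak cells; 18 yak and 14 cattle-yak pericytes lay in the top 10% of scores, and no cell was removed for its score. On simulated data with 200 genes changed 4-fold, 99.5% were recovered in each of the muscle comparisons in the yak and in the cattle-yak and in the comparison of the libraries, with 1 of 4986, 11 of 4015 and 26 of 4544 unchanged genes past the fold. The simulation drew Poisson counts for summed cells, without any spread between cells. It therefore could not show how far a few cells move the counts of genes past the fold. Python 3.11.15, numpy 2.4.6, scipy 1.17.1, pandas 2.3.3 and matplotlib 3.10.9 were used. Alternatives to the limits, the scaling and the thresholds are given at the end. No sequence was used here, and the RefSeq annotation of Bosgru_T2T1.0 only for which genes are neighbours.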

Additional observations from a re-analysis of the deposited data

Results flagged for a closer look

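RGS4, a GTPase activator of the RGS5 family, stood on opposite sides of muscle in the libraries, with a log2 ratio of 1.01 in the yak and -1.35 in the cattle-yak; the difference was not tested. It had 149 UMIs in 48 yak pericytes and 16 UMIs in 13 cattle-yak pericytes.

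SYCP1, a protein of the synaptonemal complex of meiosis, also had opposite signs, with -1.13 in the yak and 1.94 in the cattle-yak, and this difference was not tested either. Its 26 yak UMIs lay in 7 pericytes, with 11 in 1 of them, and its 30 cattle-yak UMIs in 6, with 9 in 1.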

How the results depend on the processing

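No paired analysis was possible because each cross has 1 library. Counts of genes past the fold moved with the limits, as follows, and the cause of each move was not tested unless the setting itself changes the number of genes or cells. With a first limit of 2 UMIs, RGS5 was at 1230 and 946 CPM in yak and cattle-yak pericytes, 179 yak genes were lower than in muscle, 221 yak genes higher than in all other cells, 691 cattle-yak genes higher than in muscle, and 744 genes lower in the cattle-yak than in the yak. A mitochondrial limit of 20% left 107 and 26 pericytes, with RGS5 at 1211 and 1044 CPM, 691 cattle-yak genes higher than in muscle and 406 than in all other cells, 434 genes higher and 613 lower in the cattle-yak, and a UCHL1 ratio of -0.10 between the libraries. Without a mitochondrial limit 122 genes were higher in the cattle-yak. Depth within 2 standard deviations gave RGS5 at 1748 and 1475 CPM, 240 yak genes lower and 227 cattle-yak genes higher than in muscle, and 84 higher in the cattle-yak. Without pericytes that held 3 or more UMIs over the lymphocyte, macrophage and germ cell markers RGS5 was at 1818 and 1449 CPM, with 227 cattle-yak genes higher than in muscle and 89 higher in the cattle-yak, and without the top 10% of Scrublet scores at 1755 and 1403 CPM. A pseudocount of 10 CPM gave 226 cattle-yak genes higher than in muscle, and 123 higher and 180 lower in the cattle-yak. For a mean of at least 50 CPM, a mean above 0 and a log2 ratio of at least 2 in turn, the yak counts against muscle were 190, 1320 and 125 higher and 386, 2903 and 325 lower, the cattle-yak counts 141, 2454 and 79 higher and 123, 1349 and 51 lower, the yak counts against all other cells 209, 794 and 98, the cattle-yak ones 102, 793 and 40, and those between libraries 69, 2408 and 35 higher and 93, 2439 and 70 lower in the cattle-yak. CPM without mitochondrial features gave 535 cattle-yak genes higher than in muscle and 316 higher in the cattle-yak. The mean of single-cell CPM gave 295 yak genes higher and 273 lower than in muscle, in place of 381 and 811, 278 cattle-yak genes higher than in all other cells, and 102 higher and 220 lower in the cattle-yak. After the data were seen, muscle cells with 3 or more germ cell marker UMIs were left out, which gave 237 yak genes lower, and the top cell of each gene, which gave 117 genes higher in the cattle-yak. RGS5 was found in 55.9% and 52.2% of pericytes thinned to 500 UMIs, 85.8% and 88.2% at 2000, and 92.4% and 94.2% unthinned. Of the ratios of named genes under these settings, 440 of 2664 against muscle and 71 of 384 between libraries moved out of their counting interval, and besides these 1 called ratio, that of UCHL1, changed sign. Leaving out a replicate leaves no library of that cross.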
